A study of Daphnia magna with 20 samples.

Results

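The transcripts described here are those of 6 proteins that reduce peroxides or disulfides through reactive thiol or selenol groups, followed across 20 RNA libraries of pooled whole Daphnia magna, a freshwater crustacean known as a water flea. They are 6 of the 7784 names in the deposited table, taken by name: branchiostoma peroxiredoxin v protein/arp2_g2142 (peroxiredoxin V below), the joined name gh25379p, secretable thioredoxin peroxidase, thioredoxin peroxidase 2, thioredoxin peroxidase (secretable thioredoxin peroxidase below), glutathione peroxidase, thioredoxin, mitochondrial (mitochondrial thioredoxin below), thioredoxin-2, and glutaredoxin-related protein 5, mitochondrial (glutaredoxin 5 below). All 6 passed the filter on low values, as did 7564 names in all. The exposure ran for 21 days, with 1 animal in each vessel, and the 5 libraries of each of the 4 groups were nano_high (particles of an ethylene acrylic acid copolymer at 2.3e12 per litre), nano_low (the same copolymer at 2.3e11 per litre), silica (fumed silica at 2.3e12, for which the labels give no unit) and control (vehicle). The animals of a library were pooled whole. The sources used here do not say how many went into a pool, or whether the 5 samples of a group are pools of different animals. The p-values therefore set group differences against the spread among these samples, which may be technical spread. The labels give the stage as neonates under a day old, although the test runs to day 21. Vitellogenin-1 precursor, named for the yolk protein that females load into eggs, stood at 19290 to 136746 CPM in nano_high, 13469 to 60515 CPM in nano_low, 9319 to 27005 CPM in silica and 26203 to 77643 CPM in control, where CPM are counts per 1000000 of the scaled library total.

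Thioredoxins and glutaredoxins are small proteins that reduce disulfide bonds in other proteins, thioredoxins at the expense of NADPH through thioredoxin reductase and glutaredoxins at the expense of glutathione. Peroxiredoxins, also called thioredoxin peroxidases, reduce hydrogen peroxide and organic peroxides and are themselves reduced by thioredoxin. Glutathione peroxidases do the same work with glutathione or, in several insects, with thioredoxin as the reductant. In aquatic invertebrates these enzymes are commonly measured as part of the response to oxidants.

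Library totals ran from 39087882 to 95906857 counts in nano_high, 9689064 to 40227246 in nano_low, 7912434 to 54862334 in silica and 11918440 to 26562258 in control, so that every nano_high library was deeper than every control library. The lowest estimated count of any of the 6 in any library was 82.5, for glutaredoxin 5. A set of 5 libraries (nano_high 4 and 5, nano_low 1, control 4 and 5) stood apart at one end of the first principal component, with 2136 to 3882 summed CPM over 21 collagen alpha names against 4036 to 16235 in the other 15, and no silica library was among them. Results are given with and without these 5 libraries below. In whole animals, fewer cells of a type and less RNA per cell cannot be told apart.

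The 6 names were selected on results of these data already known. The contrast used is taken to be nano_high against control, in which all 6 were lower, and it is therefore described without a test. The log2 fold changes of nano_high over control were -0.97 (SE 0.17) for peroxiredoxin V, -0.81 (SE 0.22) for glutaredoxin 5, -0.54 (SE 0.12) for glutathione peroxidase, -0.52 (SE 0.10) for mitochondrial thioredoxin, -0.52 (SE 0.16) for thioredoxin-2 and -0.44 (SE 0.073) for secretable thioredoxin peroxidase. All 6 had an adjusted p under 0.05 in that fit, a count that the choice of names fixes, beside 4.89% of all names called lower and 10.1% called in either direction (47.5% had a log2 fold change below 0). Every nano_high library lay below every control library for 4 of the 6 (4.79% of all names), thioredoxin-2 and glutaredoxin 5 being the exceptions. The means of nano_low and silica do not enter that fold change, although their libraries share the estimate of spread behind its SE and calls, and the comparison of nano_low with silica uses neither of its groups. The other comparisons share either the control or the nano_high libraries with it, so their results are not independent of the choice. Since the contrast used is assumed, nano_low against silica cannot be taken as independent of the choice either.

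**Figure D1:**
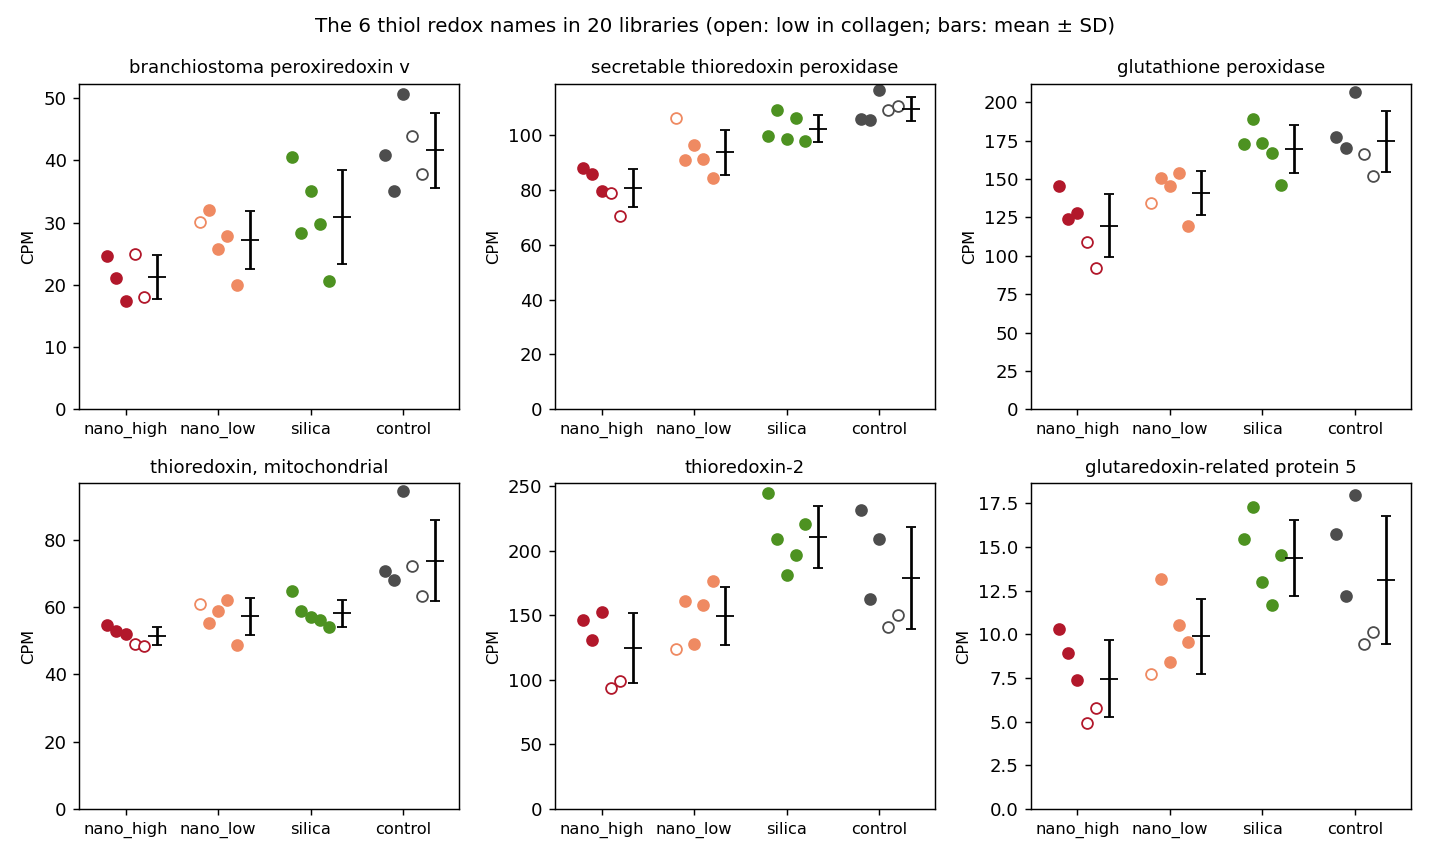
CPM of each of the 6 names (vertical axis, from 0) in every library, in the groups nano_high, nano_low, silica and control. Each point is a library, open where it is one of the 5 low in collagen, and the bar beside each group is the mean ± SD (n = 5); the nano_high mean is the lowest of the 4 in all 6 panels, and thioredoxin-2 and glutaredoxin 5 are the panels where silica has the highest mean.

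Peroxiredoxin V belongs to the peroxiredoxin family that in vertebrates works in mitochondria, peroxisomes and the cytosol. Its CPM were 24.6, 21.0, 17.3, 24.9 and 18.1 in nano_high and 30.0, 32.1, 25.8, 27.9 and 19.9 in nano_low. They were 40.6, 28.2, 35.1, 29.8 and 20.5 in silica and 40.9, 35.0, 50.6, 43.9 and 37.8 in control. Every nano_high and every nano_low library lay below the lowest control library, while the silica libraries reached into the control range. Group means were 21.2 ± 3.54 CPM in nano_high, 27.1 ± 4.67 in nano_low, 30.8 ± 7.53 in silica and 41.6 ± 6.04 in control (SD, n = 5 each), and the ranges of neighbours in that order overlapped. Of the 6 it was the name furthest below control in nano_low, with a log2 fold change of -0.62 (SE 0.17) that missed the threshold (edgeR quasi-likelihood test with Benjamini-Hochberg adjustment, adjusted p = 0.0929). In silica it was -0.43 (SE 0.17, edgeR adjusted p = 0.157). By DESeq2 the nano_low difference did pass (adjusted p = 0.0210).

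Secretable thioredoxin peroxidase carries the Drosophila name of a peroxiredoxin that enters the secretory pathway. It had 88.2, 85.9, 79.8, 78.8 and 70.7 CPM in nano_high and 106, 91.0, 96.3, 91.3 and 84.3 CPM in nano_low. Its CPM were 99.7, 109, 98.8, 106 and 98.1 in silica and 106, 106, 117, 109 and 111 in control. All nano_high libraries lay below all silica and all control libraries, and nano_low 1, one of the libraries low in collagen, was the single nano_low library within the control range. The means were 80.7 ± 6.86 CPM in nano_high, 93.8 ± 8.19 CPM in nano_low, 102 ± 4.99 CPM in silica and 109.6 ± 4.38 CPM in control (SD, n = 5 each). Nano_high was lower than silica, with a log2 fold change of -0.34 (SE 0.073, edgeR adjusted p = 0.0171). In nano_low against control the log2 fold change was -0.22 (SE 0.073, edgeR adjusted p = 0.171), and without nano_low 1 it was -0.28 and passed (adjusted p = 0.0459).

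Glutathione peroxidase, a peroxide reductase that draws on glutathione in vertebrates, had 146, 124, 128, 109 and 91.9 CPM in nano_high and 134, 151, 146, 154 and 119 CPM in nano_low. It had 173, 189, 173, 167 and 146 CPM in silica and 177, 171, 207, 166 and 152 CPM in control. The nano_high libraries again lay below all silica and all control libraries, whereas the silica and control ranges overlapped over most of their width. The means were 119.8 ± 20.3 CPM in nano_high, 141 ± 14.1 CPM in nano_low, 169.7 ± 15.5 CPM in silica and 175 ± 20.1 CPM in control (SD, n = 5 each). Nano_high was lower than silica, with a log2 fold change of -0.50 (SE 0.12, edgeR adjusted p = 0.0238), and nano_low was at -0.31 against control (SE 0.12, edgeR adjusted p = 0.248). For silica against control the log2 fold change was -0.041 with a 95% interval of -0.28 to 0.20. Its sign turned without control 3 (0.027) and without silica 5 (0.00842).

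Mitochondrial thioredoxin, the disulfide reductant of the mitochondrial matrix, had 54.6, 52.8, 51.9, 49.1 and 48.3 CPM in nano_high and 60.9, 55.3, 58.9, 62.0 and 48.7 CPM in nano_low. It had 64.7, 58.9, 57.0, 56.2 and 54.2 CPM in silica and 70.6, 68.0, 94.4, 72.3 and 63.4 CPM in control. All nano_high and all nano_low libraries lay below the lowest control library, and of the silica libraries only silica 1 lay above it. Control 3 stood well above the other 4 control libraries. The means were 51.4 ± 2.62 CPM in nano_high, 57.2 ± 5.36 CPM in nano_low, 58.2 ± 4.01 CPM in silica and 73.7 ± 12.0 CPM in control (SD, n = 5 each). Among the 3 exposed groups the log2 fold changes were -0.15 for nano_high over nano_low (95% interval -0.35 to 0.045), -0.18 for nano_high over silica (-0.38 to 0.019) and -0.027 for nano_low over silica (-0.23 to 0.17), and none passed over all names by edgeR. Against control they were -0.37 in nano_low (SE 0.10, edgeR adjusted p = 0.0849) and -0.34 in silica (SE 0.10, edgeR adjusted p = 0.0834). DESeq2 called both (adjusted p = 0.0138 in nano_low and 0.0193 in silica), and without control 3 the log2 fold changes were -0.26 in nano_low and -0.24 in silica. Without nano_low 1 edgeR called the nano_low difference (adjusted p = 0.0470).

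Thioredoxin-2, which in Drosophila is a thioredoxin of the cytosol, had its highest mean in silica. Its CPM were 147, 131, 152, 94.0 and 98.9 in nano_high and 124, 161, 127, 158 and 176 in nano_low. They were 245, 209, 181, 197 and 220.2 in silica and 231, 162, 209, 141 and 150.1 in control. Every nano_high and every nano_low library lay below the lowest silica library, and the control libraries spread over the ranges of the other groups. The means were 125 ± 26.9 CPM in nano_high, 149 ± 22.6 CPM in nano_low, 210.4 ± 24.0 CPM in silica and 179 ± 39.4 CPM in control (SD, n = 5 each). Nano_high was lower than silica, with a log2 fold change of -0.76 (SE 0.16, edgeR adjusted p = 0.0174). Nano_low was at -0.50 against silica, with a 95% interval of -0.83 to -0.16 taken for this name alone, and did not pass over all names (edgeR adjusted p = 0.737). Silica over control was 0.23 (95% interval -0.10 to 0.57, edgeR adjusted p = 0.359).

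Glutaredoxin 5 takes part in yeast and vertebrates in the assembly of iron-sulfur clusters in mitochondria. It had 10.3, 8.91, 7.38, 4.91 and 5.79 CPM in nano_high and 7.73, 13.2, 8.42, 10.6 and 9.55 CPM in nano_low. It had 15.5, 17.3, 13.0, 11.7 and 14.5 CPM in silica and 15.8, 12.2, 18.0, 9.46 and 10.2 CPM in control. Every nano_high library lay below every silica library, and the nano_low range overlapped with that of each other group. The means were 7.46 ± 2.22 CPM in nano_high, 9.88 ± 2.13 CPM in nano_low, 14.4 ± 2.18 CPM in silica and 13.1 ± 3.67 CPM in control (SD, n = 5 each). Nano_high was lower than silica, with a log2 fold change of -0.95 (SE 0.22, edgeR adjusted p = 0.0237). Nano_low over silica was -0.54 (95% interval -1.0 to -0.084, edgeR adjusted p = 0.850). Silica over control was 0.14 (95% interval -0.32 to 0.59), and -0.086 without the libraries low in collagen.

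**Figure D2:**
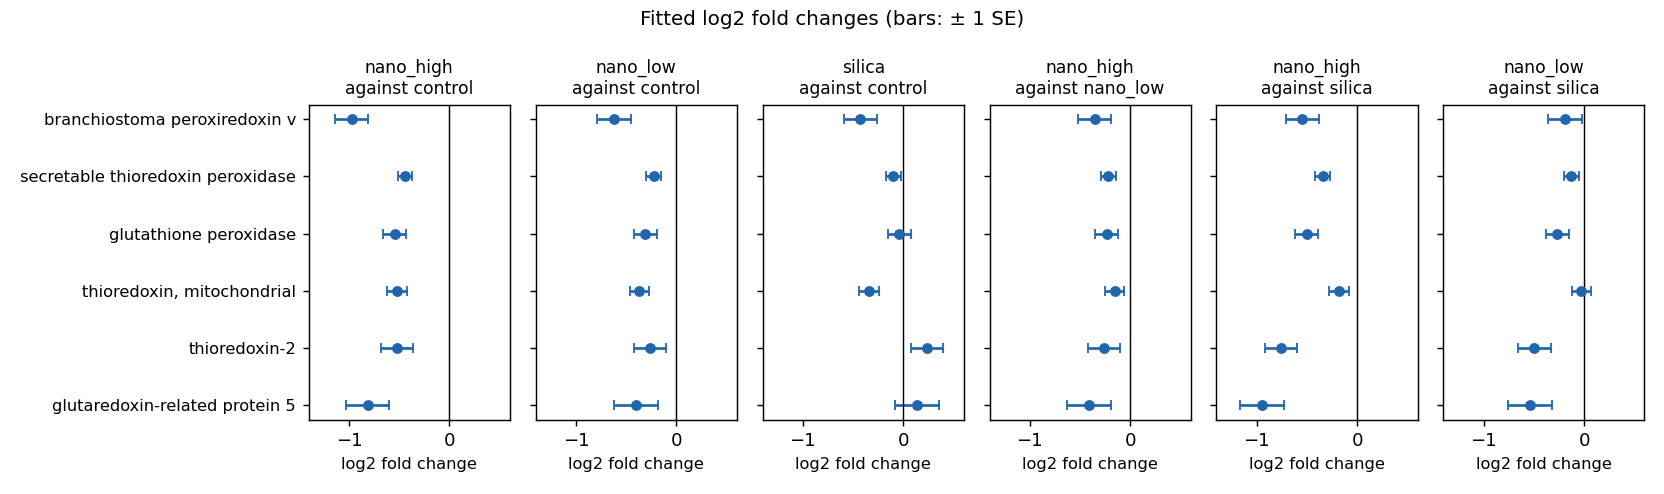
Fitted log2 fold changes (horizontal axis, points, with bars of ± 1 SE) of the 6 names in each of the 6 comparisons, from the fit to all 20 libraries. All points lie left of 0 except thioredoxin-2 (0.23) and glutaredoxin 5 (0.14) in silica against control; the nano_high against control panel holds the values taken to have chosen the names.

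In the other 5 comparisons edgeR called names among the 6 in nano_high against silica alone. Of the 6, 4 were lower in nano_high than in silica (secretable thioredoxin peroxidase, glutathione peroxidase, thioredoxin-2 and glutaredoxin 5), beside 2.99% of all names called lower, 2.37% called higher and 5.35% called in either direction. In those 4 every nano_high library lay below every silica library, which held for 4.27% of all names. Peroxiredoxin V missed the threshold there (-0.55, SE 0.17, edgeR adjusted p = 0.0594), as did mitochondrial thioredoxin (edgeR adjusted p = 0.239). All 6 log2 fold changes were below 0 (51.4% of all names), and their median was -0.52, beside -0.011 over all 7564 names. The labels give 2.3e12 for both groups, without a unit for silica. This comparison thus sets the polymer beside the mineral particle at the same printed value, and the labels do not state an equal number of particles per litre. It shares the nano_high libraries with nano_high against control, so its results are not independent of the choice of names.

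The number of calls in nano_high against silica varied with the libraries left out. Without the 5 libraries low in collagen, 2 of them nano_high and none of them silica, 0 of the 6 passed by edgeR, while 5 had an unadjusted p under 0.05, beside 19.2% of all names in that fit. The log2 fold changes then were -0.70 for glutaredoxin 5 (edgeR adjusted p = 0.0817), -0.55 for thioredoxin-2 (adjusted p = 0.0708), -0.36 for glutathione peroxidase (adjusted p = 0.117) and -0.27 for secretable thioredoxin peroxidase (adjusted p = 0.0817), and 38 names in place of 405 were called in all. Leaving out nano_high 5 alone left 0 of the 6 called, beside 1.02% of all names (5 at an unadjusted p under 0.05, beside 18.9%). Leaving out silica 1 left 1 (1.19% of all names called), and leaving out nano_high 4 left 2 (1.96%). Leaving out nano_high 1 gave 5 (8.63% of all names), as did leaving out silica 5 (2.38%). The fold changes moved less, from -0.84 to -0.66 on the log2 scale for thioredoxin-2, -1.08 to -0.81 for glutaredoxin 5, -0.57 to -0.42 for glutathione peroxidase and -0.37 to -0.30 for secretable thioredoxin peroxidase. With every library thinned to the total of the smallest, 4 of the 6 passed, beside 3.5% of all names.

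In nano_high and in control, thioredoxin-2 and glutaredoxin 5 were lower in the libraries low in collagen than in the others. Thioredoxin-2 had 94.0 and 98.9 CPM in nano_high 4 and 5, while the other nano_high libraries had 131 to 152 CPM. It had 141 and 150.1 CPM in control 4 and 5, while the other control libraries had 162 to 231 CPM. In nano_low the library low in collagen was nano_low 1, and its values were close to those of nano_low 3. They were 124 and 127 CPM for thioredoxin-2, and 7.73 and 8.42 CPM for glutaredoxin 5. The libraries low in collagen were the lowest of their group for both names in nano_high, nano_low and control. The same held for glutathione peroxidase in nano_high and control but not in nano_low, and for secretable thioredoxin peroxidase and mitochondrial thioredoxin in nano_high alone. For peroxiredoxin V, nano_high 4 was the highest nano_high library and nano_high 5 the second lowest. The part of these libraries in the group differences is shown by the values without them, and its cause was not tested. Without the 5 libraries, nano_high over control was -1.01 for peroxiredoxin V, -0.79 for glutaredoxin 5, -0.55 for mitochondrial thioredoxin, -0.49 for thioredoxin-2, -0.48 for glutathione peroxidase and -0.37 for secretable thioredoxin peroxidase on the log2 scale.

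**Figure D3:**
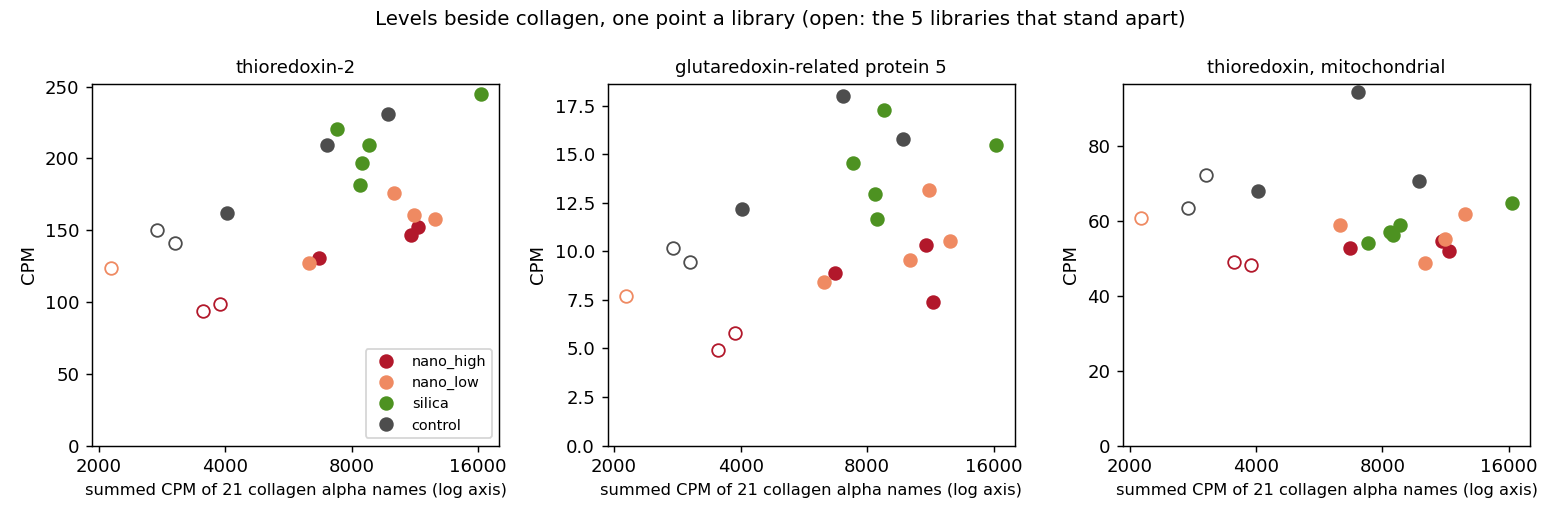
CPM of thioredoxin-2, glutaredoxin 5 and mitochondrial thioredoxin (vertical axes, from 0) against the summed CPM of 21 collagen alpha names (log axis), 1 point a library, with the 5 libraries that stand apart drawn open. For thioredoxin-2 and glutaredoxin 5 the open points are the lowest of their group; for mitochondrial thioredoxin the open nano_low point (60.9 CPM) and an open control point (72.3 CPM) are each the second highest of their group, while both open nano_high points are the lowest of theirs.

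In nano_low against control all 6 names had a log2 fold change below 0, from -0.62 to -0.22 with a median of -0.34, beside 0.010 over all names, of which 48.8% were below 0. Of the 6, 0 passed by edgeR, where 0.621% of all names did (0.529% lower and 0.0925% higher). At an unadjusted p under 0.05 there were 4 of the 6, beside 14.1% of all names, and DESeq2 called 2, beside 227 (3.01%) of all names with an adjusted p. In silica against control the 6 did not share a direction, with 4 below 0 (47.1% of all names) and 2 above, a range of -0.43 to 0.23 and a median of -0.069. Again 0 of the 6 passed by edgeR, beside 0.701% of all names (0.555% lower and 0.145% higher), 2 had an unadjusted p under 0.05 (23.2% of all names) and DESeq2 called 1, beside 399 (5.61%) of all names with an adjusted p. For 2 of the 6, peroxiredoxin V and mitochondrial thioredoxin, every nano_low library lay below every control library (1.73% of all names), and for 0 did every silica library (5.17% of all names). These comparisons and nano_high against control share the 5 control libraries.

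Between the 2 polymer concentrations, all 6 log2 fold changes of nano_high over nano_low were below 0 (49.2% of all names), from -0.41 (glutaredoxin 5) to -0.15 (mitochondrial thioredoxin). This comparison shares the nano_high libraries with nano_high against control, so these signs are not independent of the choice of names. Of the 6, 0 passed by edgeR or DESeq2, 2 had an unadjusted p under 0.05 (6.76% of all names), and of all names 0 (0.0%) were called by edgeR and 4 by DESeq2. The ranges of the 2 groups overlapped for every one of the 6. The 95% interval was -0.86 to 0.043 for glutaredoxin 5 and -0.35 to 0.045 for mitochondrial thioredoxin.

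The comparison of nano_low with silica shares neither group with nano_high against control, which is only assumed to be the contrast behind the choice of names. All 6 log2 fold changes were below 0 there, from -0.54 to -0.027. Their median was -0.23, beside -0.011 over all names, of which 52.3% were below 0. The 6 signs are not separate observations, since the names varied together within groups (median Pearson's r of 0.49 over 15 pairs). Of the 6, 0 passed by edgeR or DESeq2 (lowest edgeR adjusted p = 0.737), 3 had an unadjusted p under 0.05 (5.7% of all names), and of all names 0 (0.0%) were called by edgeR and 8 by DESeq2. Thioredoxin-2 was the single name of the 6 whose nano_low libraries all lay below all silica libraries (0.833% of all names). The sign for mitochondrial thioredoxin turned under thinning (0.00713 on the log2 scale), without nano_low 5 (0.026) and without silica 1 (0.014).

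Of 6 further thiol peroxidase names 5 were tested, since 2-cys thioredoxin peroxidase/arp2_g2745 had a value of at least 1 in 3 libraries only. Against control edgeR called 2 of the 5 lower in nano_high (4.89% of all names), 0 in nano_low and 0 in silica, and 0 higher. At an unadjusted p under 0.05 there was 1 of the 5 in nano_low (14.1% of all names) and 1 in silica (23.2%). DESeq2 called 1 lower in each, peroxiredoxin-6, beside 2.11% of all names called lower in nano_low and 3.78% in silica. Peroxiredoxin-5, mitochondrial averaged 98.8 ± 9.53 CPM in nano_high and 129.6 ± 14.2 CPM in control (SD, n = 5; fold change on the log2 scale -0.39, edgeR adjusted p = 0.0192), and it was also lower in nano_high than in silica (-0.43, edgeR adjusted p = 0.0253). Peroxiredoxin-6, in vertebrates a peroxidase reduced by glutathione, averaged 79.9 ± 13.9 CPM in nano_high and 109 ± 18.8 CPM in control (fold change on the log2 scale -0.44, edgeR adjusted p = 0.0309). It stood as low in the other exposed groups, at 80.3 ± 10.8 CPM in nano_low and 75.6 ± 2.58 CPM in silica, without passing there by edgeR (adjusted p = 0.119 in nano_low and 0.0590 in silica), while DESeq2 called both (adjusted p = 0.0451 in nano_low and 0.00563 in silica). The call of peroxiredoxin-6 in nano_high was lost under thinning (adjusted p = 0.0674). Those of peroxiredoxin-5 were lost without the 5 libraries low in collagen (edgeR adjusted p = 0.0916 against control and 0.115 against silica). Reads of peroxiredoxin-5 and peroxiredoxin V, or of the several glutathione peroxidase names, could be split between near copies, so the value of each is uncertain as to the gene.

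The other 3 glutathione peroxidase names did not pass in any comparison by edgeR, and DESeq2 called 1 of them. In nano_high against control glutathione peroxidase 6,ec:1.11.1.9/sw was at -0.28 (edgeR adjusted p = 0.209), selenium dependent salivary glutathione peroxidase at -0.44 (0.226) and phospholipid hydroperoxide glutathione peroxidase/arp2_g611, named for the enzyme that reduces lipid peroxides in membranes, at -0.28 (0.223). The salivary name came closest to the threshold in nano_high against silica, with 408 ± 52.6 CPM in nano_high and 677 ± 182 CPM in silica (fold change on the log2 scale -0.73, edgeR adjusted p = 0.0571), and this difference DESeq2 called (adjusted p = 0.0190). Thioredoxin-dependent peroxide reductase, mitochondrial, a peroxiredoxin by its name that no list pattern caught and that was added after its values were seen, averaged 121 ± 15.2 CPM in nano_high and 135 ± 13.6 CPM in control (fold change on the log2 scale -0.15, edgeR adjusted p = 0.381). Both other glutaredoxins were tested. Glutaredoxin-2, mitochondrial was lower in nano_high, with 14.6 ± 1.65 CPM in nano_high and 23.5 ± 5.64 CPM in control (fold change on the log2 scale -0.69, SE 0.15, edgeR adjusted p = 0.00976), and glutaredoxin-3 averaged 12.0 ± 1.40 CPM in nano_high and 14.5 ± 2.94 CPM in control (edgeR adjusted p = 0.294).

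**Figure D4:**
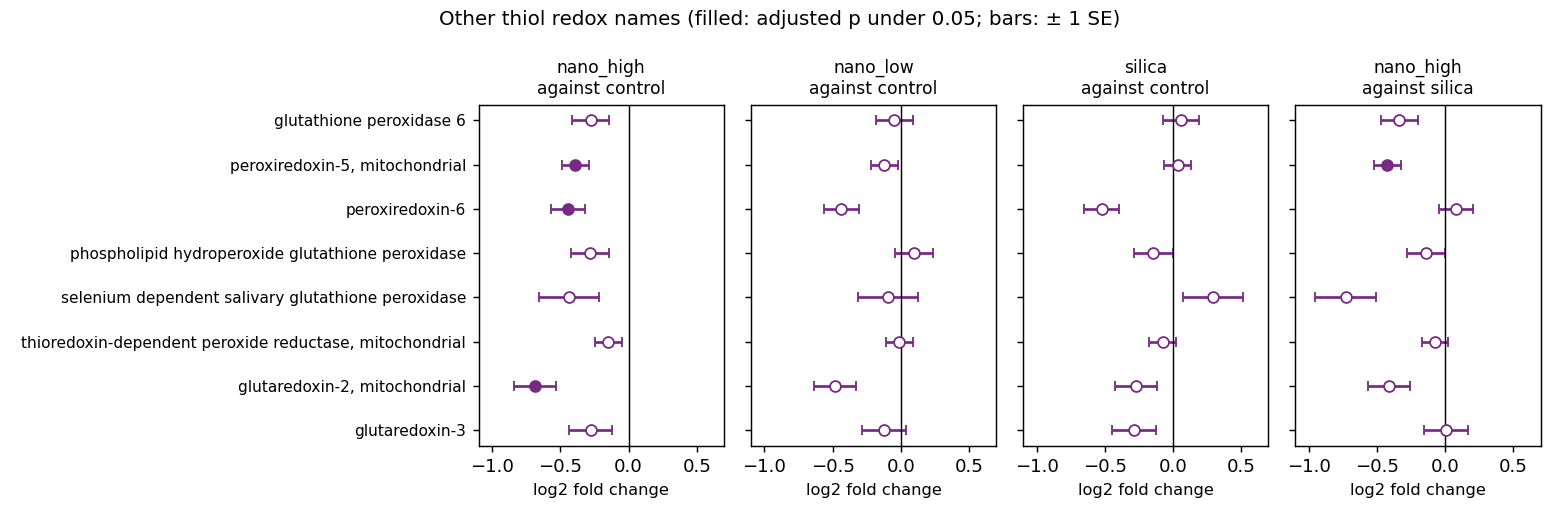
Log2 fold changes (horizontal axis, with bars of ± 1 SE) of the other 8 tested names of thiol peroxidases and glutaredoxins in 4 comparisons, filled where the adjusted p was under 0.05. Peroxiredoxin-5, peroxiredoxin-6 and glutaredoxin-2 are filled in nano_high against control, and peroxiredoxin-5 alone in nano_high against silica.

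Of 5 thiol reductases (thioredoxin reductase and the methionine sulfoxide reductases, which thioredoxin serves) edgeR called 1 lower in nano_high than in control (4.89% of all names) and 0 in the other 5 comparisons. In those, 0 to 3 of the 5 had an unadjusted p under 0.05, beside 5.7% to 25.2% of all names. DESeq2 called 2 lower in nano_high (7.41% of all names) and 1 lower in nano_low (2.11%) than in control. Without nano_low 1 edgeR too called 1 in nano_low (2.26% of all names called lower). The name called in nano_high by edgeR was methionine-r-sulfoxide reductase, which repairs oxidised methionine, at 9.36 ± 2.02 CPM in nano_high and 15.7 ± 2.24 CPM in control (fold change on the log2 scale -0.75, edgeR adjusted p = 0.0170), and it was the name DESeq2 called in nano_low (adjusted p = 0.00344). Of 13 disulfide isomerases and thioredoxin domain proteins 1, thioredoxin domain-containing protein, was lower in nano_high, both against control (-0.33, edgeR adjusted p = 0.0103) and against silica (-0.36, 0.0167), beside 4.89% of all names called lower against control and 2.99% against silica. The median log2 fold change of nano_high over control was -0.25 for the reductases, 0.022 for the disulfide isomerases and thioredoxin domain proteins, and 0.018 over all names. In silica over control these medians were -0.27, 0.049 and 0.025, and in nano_low over control -0.10, 0.0069 and 0.010. The reductases were thus about as low in silica, where 3 of the 5 had an unadjusted p under 0.05 (23.2% of all names).

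Of 23 names of glutathione synthesis and conjugation 2 were lower and 0 higher in nano_high than in control by edgeR (median -0.29), beside 4.89% of all names called lower, and DESeq2 called 6 lower (7.41% of all names with an adjusted p). Those called by edgeR were glutathione s-transferase kappa (-0.49, edgeR adjusted p = 0.0335) and glutathione s-transferase/arp2_g10424 (-0.57, 0.0193), enzymes of the family that couples glutathione to reactive compounds. In nano_low and in silica against control edgeR called 0 of the 23. At an unadjusted p under 0.05 there were 5 in nano_low (14.1% of all names) and 7 in silica (23.2%). In silica DESeq2 called glutathione s-transferase s1 (-0.43, adjusted p = 0.0194) and glutathione s-transferase/arp2_g10424 (-0.47, 0.0428) lower than control, beside 3.78% of all names. Against silica, gamma-glutamylcyclotransferase cg2811, named for an enzyme of the gamma-glutamyl cycle, was lower in nano_high (-0.36, edgeR adjusted p = 0.0348), and glutathione s-transferase c-terminal domain-containing protein was higher at 3.20 ± 1.52 CPM in nano_high and 1.16 ± 0.294 CPM in silica (fold change on the log2 scale 1.45, edgeR adjusted p = 0.0340). The latter call, at low values, was lost under thinning (edgeR adjusted p = 0.0838). It held in 3 of 10 fits that left out a single library.

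Of 19 other antioxidant names 4 were lower and 0 higher in nano_high than in control by edgeR (median -0.26, beside 4.89% of all names called lower). By DESeq2 5 were lower (7.41% of all names with an adjusted p). Iron storage proteins made up most of the 4 called by edgeR in nano_high: ferritin, heavy subunit (-0.82, edgeR adjusted p = 0.00759), ferritin 2 light chain (-0.70, 0.00412) and ferritin protein d (-0.97, 0.0123), beside chorion peroxidase precursor/arp2_g269 (-0.43, 0.0334). In nano_low against control edgeR called 0 of the 19, with 7 at an unadjusted p under 0.05 (14.1% of all names). There DESeq2 called 2, ferritin, heavy subunit and ferritin 2 light chain, beside 2.11% of all names called lower. In silica against control edgeR called 1 of the 19 lower (0.555% of all names), with 7 at an unadjusted p under 0.05 (23.2%). There DESeq2 called that name, copper-zinc superoxide dismutase, and ferritin protein d (-0.80, adjusted p = 0.0214) lower, beside 3.78% of all names. Superoxide dismutases turn superoxide into hydrogen peroxide, the substrate of the peroxidases above. Copper-zinc superoxide dismutase was lower in silica, at 15.6 ± 3.90 CPM in silica and 49.9 ± 19.5 CPM in control (fold change on the log2 scale -1.69, SE 0.35, edgeR adjusted p = 0.0437), and higher in nano_high than in silica (1.49, 0.0244). The silica call held in 1 of the 10 fits that left out a single silica or control library, with adjusted p up to 0.12. Superoxide dismutase [mn], mitochondrial was lower in nano_high than in silica, at 46.8 ± 10.3 CPM in nano_high and 70.7 ± 9.23 CPM in silica (fold change on the log2 scale -0.60, edgeR adjusted p = 0.0443), a call lost under thinning (adjusted p = 0.0620).

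Iron-sulfur assembly is the route that glutaredoxin 5 serves in other species. Of its 11 names 3 were lower and 0 higher in nano_high than in control (median -0.30), and 2 were lower than in silica (median -0.38), the same counts by edgeR and DESeq2, beside 4.89% and 2.99% of all names called lower by edgeR. Frataxin, mitochondrial, an iron-binding helper of cluster assembly, averaged 18.0 ± 2.33 CPM in nano_high and 26.0 ± 2.19 CPM in silica (fold change on the log2 scale -0.53, SE 0.10, edgeR adjusted p = 0.0108), and against control it was at -0.36 (0.0330). Iron-sulfur cluster assembly enzyme iscu, mitochondrial, the scaffold on which clusters form, was at -0.38 against silica (edgeR adjusted p = 0.0351) and -0.34 against control (0.0323). Iron-sulfur cluster assembly 1 , mitochondrial was at -0.52 against control (0.0102). Over the 7 lists of thiol, glutathione, antioxidant and iron-sulfur names, 8 names were called by edgeR in nano_high against silica. Of these, 5 were still called under thinning and 0 without the 5 libraries low in collagen. Of 14 called in nano_high against control, 13 were still called under thinning and 8 without the 5 libraries. Of all names, 5.35% were called against silica in the main fit, 3.5% under thinning and 0.505% without the 5 libraries. Against control these shares were 10.1%, 8.6% and 8.2%. When a single library was left out in turn, frataxin and thioredoxin domain-containing protein held their calls against silica in 10 of 10 fits and the other 6 names in 3 to 6. Against control, 7 names (the 3 ferritins, glutaredoxin-2, iron-sulfur cluster assembly 1, methionine-r-sulfoxide reductase and thioredoxin domain-containing protein) held in 10 of 10 and the other 7 in 3 to 8. Some of those that held in 10 of 10 were not called without the 5 libraries low in collagen. They were ferritin 2 light chain (edgeR adjusted p = 0.0523), methionine-r-sulfoxide reductase (0.0886) and thioredoxin domain-containing protein (0.0570).

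Tissue markers were set beside these results because the libraries are of whole animals. Summed over 73 cuticle, collagen and chitinase names, CPM were 15173 to 22539 in nano_high, 11223 to 28366 in nano_low, 17233 to 33865 in silica and 13538 to 25384 in control. By edgeR 0 of the 73 were called in any of the 6 comparisons, beside 0.0% to 10.1% of all names. The 4 yolk and vitelline names summed to 20151 to 139917 CPM in nano_high, 14146 to 62011 in nano_low, 9939 to 27907 in silica and 27167 to 79662 in control. For 8 muscle names the sums were 10079 to 16772 CPM in nano_high, 8180.0 to 16864 in nano_low, 11723 to 16152 in silica and 7320.5 to 13199 in control. For 41 gut protease, carboxypeptidase and amylase names they were 12543 to 16733 CPM in nano_high, 11584 to 16773 in nano_low, 12027 to 17822 in silica and 14749 to 20668 in control. For 9 globin names they were 3639 to 8024 CPM in nano_high, 4253 to 6794 in nano_low, 4168 to 6489 in silica and 4624 to 6633 in control. Against control edgeR called 1 yolk name, 4 gut names and 1 globin name lower in nano_high (4.89% of all names) and 1 globin name higher (5.17%). Against silica 1 gut name was higher (2.37% of all names) and 1 globin name lower (2.99%) in nano_high. No name of these lists was at 0 in all libraries of a group. Their part in the results was not tested. Cytosolic ribosomal proteins are small as well. Of 94 tested, edgeR called 39 lower than control in nano_high (4.89% of all names), 17 in nano_low (0.529%) and 25 in silica (0.555%). Against silica 3 of the 94 were higher (2.37% of all names) and 0 lower (2.99%) in nano_high.

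Likeness within groups was measured as Pearson's r of log2 CPM after the group means were taken out, over 20 libraries and again over the 15 not low in collagen, and is a description across libraries that also differ in depth. Over the 15 pairs of names r ran from -0.042 to 0.83 with a median of 0.49 (20 libraries). The closest pair was thioredoxin-2 and glutaredoxin 5 (0.83, and 0.52 over the 15 libraries). Glutathione peroxidase and mitochondrial thioredoxin were at 0.71 and 0.77, while peroxiredoxin V and thioredoxin-2 were at -0.042 and 0.052.

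Among all other tested names, those most like each member by the same measure were the following. For peroxiredoxin V they were saccharopine dehydrogenase oxidoreductase (r = 0.84, and 0.85 over the 15 libraries) and glutathione s-transferase s1 (0.82 and 0.91). For secretable thioredoxin peroxidase they were peptidyl-prolyl cis-trans isomerase fkbp8 (r = 0.82, and 0.70 over the 15 libraries) and thioredoxin domain-containing protein (0.75 and 0.63). Glutathione peroxidase was closest to solute carrier family 35 member b1 (r = 0.94, and 0.91 over the 15 libraries) and ero1 protein beta (0.94 and 0.94); ero1 is the oxidase that makes disulfides in the endoplasmic reticulum. Mitochondrial thioredoxin was closest to actin-related protein 2/3 complex subunit (r = 0.88, and 0.90 over the 15 libraries) and s-phase kinase-associated protein (0.83 and 0.82). Thioredoxin-2 was closest to calponin/arp2_g25965 (r = 0.94, and 0.87 over the 15 libraries) and phosphorylase b kinase regulatory subunit beta (0.93 and 0.84), and glutaredoxin 5 to kazrin (r = 0.91, and 0.80 over the 15 libraries) and phosphatidylglycerophosphatase and protein-tyrosine phosphatase (0.91 and 0.73). Over the 15 libraries both values were lower for secretable thioredoxin peroxidase, for thioredoxin-2 and for glutaredoxin 5.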

How the data were processed

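The deposited table holds, per its values and the submitters' processing notes (Salmon 0.12.0 and R 3.4.3), estimated counts for 7784 protein names in 20 libraries. The file is called normalized, but its totals differ 12.1-fold, so the deposited estimated counts were taken as not scaled to a common depth. The reference and the step that gave names to transcripts are not stated, and without lengths levels are not compared between names.

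Counts were rounded, and a name was tested where 5 or more libraries had a value of 1 or more, which left 7564 and set 220 aside. TMM factors ran from 0.898 to 1.14. A single edgeR model (version 4.0.16, R 4.3.3) held the 4 group means over the 20 libraries. Each comparison was tested two-sided by quasi-likelihood, with p-values adjusted by Benjamini-Hochberg across the tested names and a threshold of 0.05. CPM scale each library to 1000000 counts after TMM, and the 95% intervals are those of a single name. The procedure was tested on simulated data.

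The 6 names, the other lists, the 5 libraries that stand apart and the alternatives were chosen with earlier results of these data known. The text names all 6, the other thiol peroxidases and glutaredoxins, up to 4 called names of each other list (of the other antioxidant names all 6 called, 2 more than the rule gives, added after their values were seen), and for each of the 6 the names most like it. Alternatives were DESeq2 1.42.0, its size factors, no filter, a replicate block, thinning to the smallest total, leaving out the 5 libraries, and leaving out each library in turn.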

Additional observations from a re-analysis of the deposited data

Results flagged for a closer look

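Of 24 groups of 5 libraries (6 names in 4 groups), 1 held a library far from the others by Dixon's test, which flags about 1 in 20 groups by chance. Thioredoxin, mitochondrial stood at 94.4 CPM in control 3, against 63.4 to 72.3 CPM in the other control libraries. Control 3 was also the highest control library for peroxiredoxin V, secretable thioredoxin peroxidase, glutathione peroxidase and glutaredoxin 5. Without it, the log2 fold change of mitochondrial thioredoxin over control was -0.42 in nano_high, -0.26 in nano_low and -0.24 in silica.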

How the results depend on the processing

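With the size factors of DESeq2 in place of TMM, with no filter and under thinning, each count of the 6 names called was the same as in the main analysis. With DESeq2 itself the counts were 2 in nano_low against control, 6 in nano_high against control, 1 in silica against control, 0 in nano_high against nano_low, 5 in nano_high against silica and 0 in nano_low against silica. Without the 5 libraries low in collagen they were 5 in nano_high against control and 0 in the other comparisons. When each library was left out in turn, the count ran from 0 to 2 in nano_low against control, 4 to 6 in nano_high against control and 0 to 5 in nano_high against silica, and was 0 elsewhere.

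The sign of a log2 fold change turned in 3 cases. Glutaredoxin-related protein 5, mitochondrial in silica against control was at -0.0865 without the 5 libraries. Glutathione peroxidase in silica against control ran from -0.0863 to 0.0271 with a library left out, and thioredoxin, mitochondrial in nano_low against silica from -0.0577 to 0.0257, with 0.00713 under thinning. The cause was not tested. The other fold changes of the 6 kept their sign in every alternative.

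Over all names, the calls numbered 47 in nano_low against control, 761 in nano_high against control, 53 in silica against control and 405 in nano_high against silica. DESeq2 called 227, 1152, 399 and 919 in that order, and thinning left 15, 647, 21 and 263. Without the 5 libraries they were 40, 617, 0 and 38. With a library left out they ran from 8 to 236, 413 to 967, 0 to 132 and 77 to 652.

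Libraries with the same replicate number were about as alike in their deviations as other pairs across groups. Over the 30 same-number pairs r ran from -0.636 to 0.650 (median 0.013, 8 over 0.1). Over 120 other pairs it ran from -0.616 to 0.691 (median 0.0026, 37 over 0.1). This r covers all names at once, so whether the numbers stand for a shared step is not settled by it. A replicate block left 0 of the 6 in nano_low against control, 5 in nano_high against control, 0 in silica against control, 0 in nano_high against nano_low, 4 in nano_high against silica and 0 in nano_low against silica, and 13, 611, 0 and 267 of all names in the order above. Of the other redox names called, it left 12 of 14 in nano_high against control, 5 of 8 in nano_high against silica and 0 of 1 in silica against control. Those not called under it were peroxiredoxin-6, glutathione s-transferase kappa, glutathione s-transferase c-terminal domain-containing protein, superoxide dismutase [mn], mitochondrial, iron-sulfur cluster assembly enzyme iscu, mitochondrial (against silica) and copper-zinc superoxide dismutase (silica against control).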
